A study of Mus musculus with 2 samples.

Results

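The Gimap gene cluster on mouse chromosome 6 was examined for Tcf1 binding in naïve CD8+ T cells. The region was taken as the bodies of Gimap1, Gimap3, Gimap4, Gimap5, Gimap6, Gimap7, Gimap8 and Gimap9 plus 50 kb at either end (mm9, chr6:48547233-48766518, 219 kb, with genes from GENCODE vM1), and it held 24 of the 22286 deposited peaks by summit position. The locus was chosen by its measured density of peaks in this same list, so the number and density of its peaks are given as a description with no test. Tcf1 ChIP-seq compared 1 WT library of 36938606 fragments with 1 Tcf1-deficient library of 27625250 fragments (both without duplicates, a ratio of 1.34) to locate Tcf1 binding in WT cells. Both libraries were made with rabbit antiserum against full-length recombinant Tcf1 from splenic CD8 T cells, which the labels describe as GFP+ TCRbeta+ CD62Lhi CD44lo-med CD8+. The control is titled Tcf1-deficient, its genotype field reads Tcf1-/-Lef1-/-, and the design text names hCD2-Cre, a Rosa26-lsl-GFP reporter and double floxed Tcf1/Lef1 alleles, with WT alleles in the other group. The methods of the study instead describe Cd4-Cre+ Tcf7 fl/fl animals for this assay. Whether the control cells lacked Lef1 could therefore not be settled, and neither age nor sex of the mice is given in the labels. With 1 library per group there was no replicate check, and every p of the peak caller compares these 2 libraries, not the genotypes. Expression was not measured in these files, so the labelled cell type was not checked against its markers.

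The Gimap genes encode GTPases of the immunity-associated protein family, and in mammals they are expressed mainly in lymphocytes and lie as tandem copies at a single locus. The proteins sit on intracellular membranes and are known for the survival and homeostasis of lymphocytes, and loss of Gimap5 leads to T cell lymphopenia in rodents. Tcf1 is an HMG-box transcription factor encoded by Tcf7, which together with its relative Lef1 binds the Tcf/Lef motif and is needed for T cell development and identity.

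The 24 peaks are numbered here by position, from peak 1 next to Zfp775 to peak 24 on the Tmem176b side. The criteria for a high-confidence peak came from the methods of the study and were a 4-fold enrichment or more, p below 1e-05 and q below 0.05. Fold enrichment is a linear ratio of the WT pileup (fragments over the summit) plus 1 to the level expected from the Tcf1-deficient library plus 1. Of the 24 peaks, 23 passed (85.4% of all deposited peaks did). The exception was peak 11 in an intron of Gimap6, with a pileup of 22 (exact 95% Poisson interval 13.8 to 33.3) and a fold enrichment of 3.58, next to 4.36 for peaks 3 and 6 just above the minimum. At the edges of the region, the outermost members were peak 1, 4.69 kb inside, and peak 24, 12.9 kb inside. The next high-confidence peaks outside lay 42.5 kb beyond the left edge (fold enrichment 15.9) and 1.54 kb beyond the right edge (fold enrichment 8.26).

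Of the 23, 5 had fold enrichments of at least 20, and their summit sequences are shown because the results on sequence content turn on them. Peak 17 is added as one of the 2 peaks with an exact Tcf/Lef core close to the summit. Each run covers the 100 bp on either side of the summit (mm9), shortened where it would enter an annotated exon. Capitals mark the Tcf/Lef core (ATCAAAG, or CTTTGAT when it lies on the minus strand), the Runx core (TGTGGTT, or AACCACA) and, in peak 1 alone, CCAAT boxes (CCAAT, or ATTGG).
Peak 1, chr6:48551821-48552005, plus strand: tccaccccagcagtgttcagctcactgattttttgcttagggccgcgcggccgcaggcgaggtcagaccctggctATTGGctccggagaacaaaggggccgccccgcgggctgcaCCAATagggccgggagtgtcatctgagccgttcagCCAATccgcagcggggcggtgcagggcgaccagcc
Peak 8, chr6:48629835-48630035, plus strand: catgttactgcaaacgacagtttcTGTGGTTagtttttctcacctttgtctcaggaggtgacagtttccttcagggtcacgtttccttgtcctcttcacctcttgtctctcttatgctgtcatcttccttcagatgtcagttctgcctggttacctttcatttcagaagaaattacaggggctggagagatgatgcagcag
Peak 13, chr6:48668489-48668605, plus strand: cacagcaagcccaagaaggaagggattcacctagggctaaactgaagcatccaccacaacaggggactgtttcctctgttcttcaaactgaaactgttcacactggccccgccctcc
Peak 15, chr6:48677902-48678102, plus strand: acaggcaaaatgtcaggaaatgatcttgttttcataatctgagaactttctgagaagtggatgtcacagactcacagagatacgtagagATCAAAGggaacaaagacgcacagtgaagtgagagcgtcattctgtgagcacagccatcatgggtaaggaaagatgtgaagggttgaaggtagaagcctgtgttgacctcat
Peak 16, chr6:48682975-48683175, plus strand: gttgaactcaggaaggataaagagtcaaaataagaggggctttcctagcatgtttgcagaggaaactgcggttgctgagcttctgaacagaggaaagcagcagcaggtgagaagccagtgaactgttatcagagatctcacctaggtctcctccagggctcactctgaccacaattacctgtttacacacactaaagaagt
Peak 17, chr6:48687105-48687305, plus strand: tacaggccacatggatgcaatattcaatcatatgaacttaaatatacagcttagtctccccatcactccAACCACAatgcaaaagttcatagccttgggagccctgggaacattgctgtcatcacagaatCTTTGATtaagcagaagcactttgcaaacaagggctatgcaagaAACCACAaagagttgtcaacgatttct

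The other sequences shown are the 6 exact Tcf/Lef cores found anywhere within a high-confidence peak of the region, each read 5′ to 3′ on the strand that carries the core, with the core in capitals.
Peak 15, chr6:48677981-48678007, plus strand: atacgtagagATCAAAGggaacaaaga
Peak 16, chr6:48683370-48683396, plus strand: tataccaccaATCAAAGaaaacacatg
Peak 17, chr6:48687225-48687251, minus strand: cttctgcttaATCAAAGattctgtgat
Peak 18, chr6:48689353-48689379, minus strand: agctttgttcATCAAAGatgtgtgaac
Peak 18, chr6:48689522-48689548, plus strand: tgtctggtgtATCAAAGaaacttaaaa
Peak 24, chr6:48753826-48753852, minus strand: gaagaaaaccATCAAAGccagaaagct

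Tcf1 binding was strongest at 3 places, a peak 45.3 kb upstream of Gimap8 and a pair of peaks between Gimap7 and the main start sites of Gimap1. Peak 1 (chr6:48551586-48552674) had a pileup of 243 (213 to 276) over a control level of 5.42, which gave a fold enrichment of 38.0 (33.4 to 43.1), and a −log10 p of 301. Peak 16 (chr6:48682499-48683857) had a pileup of 218 (190 to 249) and a fold enrichment of 34.1 (29.8 to 38.9). Peak 15 (chr6:48677691-48678343) had a pileup of 201 (174 to 231) and a fold enrichment of 31.5 (27.3 to 36.1). The intervals of these 3 peaks overlapped, so their order was within counting error. Among the 19038 high-confidence peaks on the numbered chromosomes and X, which the genome-wide comparisons use, they ranked 285, 409 and 512 by fold enrichment. Peak 13 at the Gimap7 start (fold enrichment 22.3, 18.8 to 26.2) and peak 8 between Gimap9 and Gimap4 (21.9, 18.9 to 25.3) came next, with intervals that overlapped each other and lay below that of peak 15. All intervals given for pileups and fold enrichments cover counting error of the WT library only, with the control level held fixed.

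**Figure D1:**
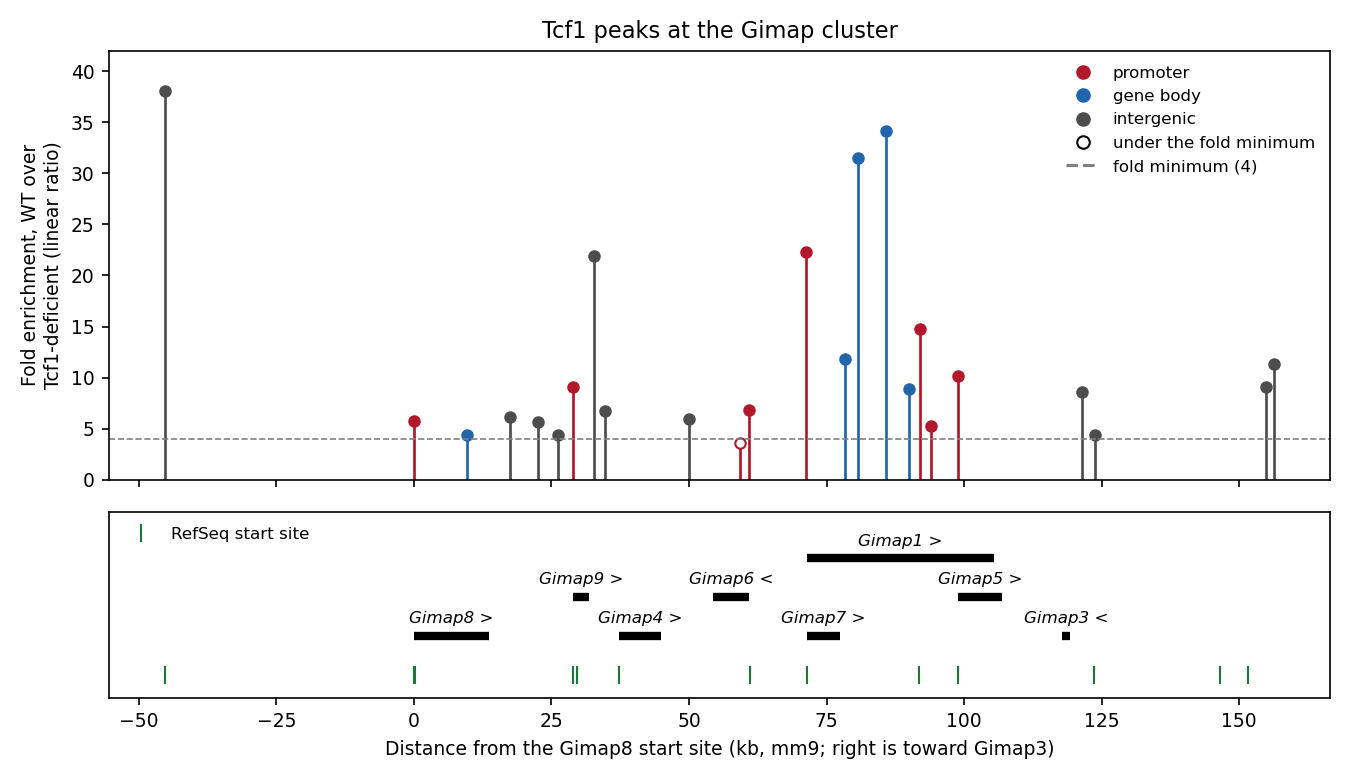
Fold enrichment of the 24 deposited peaks (linear ratio, vertical axis) against distance from the Gimap8 start site in kb, with GENCODE genes (arrowheads give the strand) and RefSeq start sites below and colours for promoter, gene body and intergenic peaks by GENCODE. The highest stems, 38.0, 34.1 and 31.5, stand at the left end and between the Gimap7 and Gimap5 starts, and the open circle is peak 11 at 3.58.

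Peak 1 had the highest measured fold enrichment of the region, with an interval that overlapped those of peaks 15 and 16. It lay outside every GENCODE vM1 gene, in the gap between Repin1 and Zfp775, which both encode zinc finger proteins, and 7.60 kb from the nearest GENCODE start site. RefSeq start sites, placed on mm9 by an exact match of the RefSeq promoter sequence (GRCm38.p6 table), put it 85 bp upstream of a Zfp775 start. By that annotation it is a promoter peak of a neighbouring gene and not of a Gimap gene. The 201 bases around its summit had a GC content of 66.2% and 18 CpG, the highest of both in the region. They also held 4 CCAAT boxes, of which 3 fall within the run shown above. This motif was chosen after its copies were seen. At least 1 CCAAT box was present in 20.4% of all 19038 windows and in 5 of the 23 of the region, and at least 4 in 32 windows of the whole list (0.168%). Without peak 1 the region had 22 high-confidence peaks with a median fold enrichment of 8.73.

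Tcf1 peaks sat at the start sites of most Gimap genes. By GENCODE, 6 of the 8 genes (75%, exact 95% binomial interval 34.9 to 96.8) had a high-confidence peak within 1 kb of a start site, which was 32.8% among all 22350 protein-coding genes. The genes were chosen for their peaks, so this share is a description. Gimap7 (ENSMUSG00000043931.9, plus strand) had the strongest promoter peak, peak 13 (chr6:48668270-48668939), whose summit lay 31 bp upstream of its start with a pileup of 142 (120 to 167). The longest Gimap1 transcript starts 17 bp downstream of the same summit, so the peak was shared by both genes.

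Gimap1 (ENSMUSG00000090019.2, plus strand), which is needed for the survival of mature lymphocytes, has 5 annotated transcripts, and the longest spans Gimap7 and part of Gimap5. Near the main start sites of Gimap1, peak 18 (chr6:48688725-48689600) had a pileup of 94 (76.0 to 115) and a fold enrichment of 14.8 (12.0 to 18.1). Its summit lay 162 bp downstream of the nearest of these starts. The same summit lies in a noncoding exon of Gm3345, an antisense gene, and ChIP signal does not tell the strands apart. Peak 19 (fold enrichment 5.30, 3.70 to 7.38), in an intron of Gimap1, counted as a promoter peak through Gm3345 alone, 662 bp upstream of the Gm3345 start.

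Gimap5 (ENSMUSG00000043505.7, plus strand), the member required for T cell survival, carried peak 20 (chr6:48695340-48697266), the widest of the region at 1927 bp. The summit lay 9 bp downstream of a start with a pileup of 64 (49.3 to 81.7) and a fold enrichment of 10.1 (7.84 to 12.9). Gimap9 (ENSMUSG00000051124.6, plus strand) had peak 7 (chr6:48625830-48626554) at 56 bp upstream, with a pileup of 57 (43.2 to 73.9) and a fold enrichment of 9.04 (6.88 to 11.7). By RefSeq, the same summit also lay 736 bp downstream of the start of Gm46958, on the minus strand.

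Gimap6 (ENSMUSG00000047867.5, minus strand), which has been linked to autophagy, had peak 12 (chr6:48657911-48658461) 12 bp downstream of its start, in a 5′ untranslated exon, with a pileup of 43 (31.1 to 57.9) and a fold enrichment of 6.86 (5.0 to 9.18). Peak 11, under the fold minimum, lay 225 bp upstream of the start of a shorter noncoding Gimap6 transcript. Gimap8 (ENSMUSG00000064262.4, plus strand), the gene at the left end of the cluster, had the weakest of the GENCODE promoter peaks at Gimap starts, peak 2 (chr6:48597090-48597342), 31 bp upstream, with a pileup of 36 (25.2 to 49.8) and a fold enrichment of 5.76 (4.08 to 7.92).

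Gimap3 and Gimap4 had no high-confidence peak within 1 kb of a GENCODE start site. For Gimap3 (ENSMUSG00000039264.8, minus strand), a close relative of Gimap5, the annotations differ: its RefSeq start lies 4.33 kb upstream of the GENCODE one. Peak 22 (chr6:48720819-48721117) was 125 bp upstream of that RefSeq start, with a pileup of 30 (20.2 to 42.8), a fold enrichment of 4.42 (3.03 to 6.25) over a control level of 6.02. With RefSeq starts, 7 of the 8 genes had a promoter peak, which was 33.8% among the 16132 RefSeq protein-coding genes whose starts could be placed on mm9 in this way. Gimap4 (ENSMUSG00000054435.8, plus strand), reported to promote T cell death, had none in either annotation. Its nearest peak, peak 9 (fold enrichment 6.70, 4.87 to 9.0), lay 2.70 kb upstream of the RefSeq start. Ordered by fold enrichment at the RefSeq start, which takes peak 18 for Gimap1 and peak 13 for Gimap7 alone, the interval of Gimap7 lay above that of Gimap1. The neighbours in the order Gimap1, Gimap5, Gimap9, Gimap6, Gimap8 and Gimap3 had overlapping intervals.

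**Figure D2:**
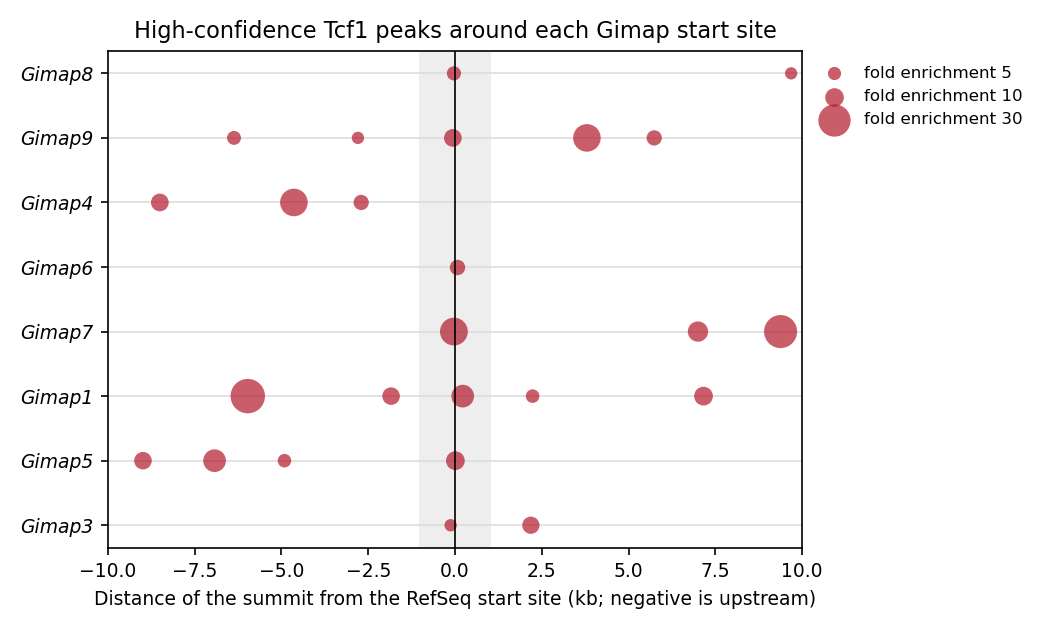
Distance of each high-confidence summit from the RefSeq start site of each Gimap gene (kb, negative is upstream, within 10 kb), with point area growing with fold enrichment and the 1 kb on each side shaded. For Gimap8 the first of its start sites is used, a peak within reach of several genes appears in each row, and Gimap4 has no point in the shaded band.

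The interval from the Gimap7 start to the Gimap5 start held 8 high-confidence peaks over 27.6 kb, peaks 13 to 20, and 3 of the 5 strongest peaks. Peaks 14 to 17 were not at a start site. Peak 14 (chr6:48675343-48676172) had a pileup of 75 (59.0 to 94.0) and a fold enrichment of 11.8 (9.35 to 14.8), and lay 7.0 kb downstream of the Gimap7 start. Peak 15 followed at 9.38 kb from that start. Peak 16 lay 5.98 kb and peak 17 (chr6:48686905-48687538, pileup 56, 42.3 to 72.7, fold enrichment 8.88, 6.75 to 11.5) 1.85 kb upstream of the main Gimap1 starts. These 4 peaks lie in an intron of the longest Gimap1 transcript, and they would be intergenic if that transcript were set aside.

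The gap between Gimap8 and Gimap9 held 3 weak peaks besides the Gimap9 promoter peak. Peak 4 (chr6:48614507-48614945) was 11.5 kb upstream of Gimap9, with a pileup of 46 (33.7 to 61.4), a fold enrichment of 6.12 (4.51 to 8.11) over a control level of 6.69. Peaks 5 and 6 were 6.36 kb and 2.79 kb upstream, with fold enrichments of 5.61 (3.95 to 7.74) and 4.36 (2.93 to 6.28). Peak 3 (chr6:48606806-48607055), the only one inside Gimap8, was in an intron 9.56 kb from the start and had a pileup of 27 (17.8 to 39.3) and a fold enrichment of 4.36 (2.93 to 6.28). The lower bounds of the fold enrichments of peaks 3, 5, 6, 19 and 22 lay under the fold minimum, so their side of it was within counting error.

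Between Gimap9 and Gimap4, peak 8 (chr6:48629589-48630857) was strong, with a pileup of 182 (157 to 210) and a −log10 p of 181. It lay 3.80 kb downstream of the Gimap9 start and 4.64 kb upstream of the Gimap4 start, both by RefSeq. It also had the highest control level of the region, 7.35. Between Gimap4 and Gimap6 there was a single peak, peak 10 (chr6:48647144-48647487), with a pileup of 37 (26.1 to 51.0) and a fold enrichment of 5.92 (4.21 to 8.10), 11.0 kb downstream of the RefSeq Gimap6 start.

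On the Gimap3 side, peak 21 (chr6:48718466-48719187) had a pileup of 54 (40.6 to 70.5) and a fold enrichment of 8.57 (6.48 to 11.1) and lay between the GENCODE and RefSeq starts of Gimap3. Peaks 23 and 24 formed a pair 1.49 kb apart, 35.6 kb and 37.1 kb upstream of the GENCODE Gimap3 start, with fold enrichments of 9.04 and 11.4 (8.93 to 14.3). Peak 24 (chr6:48753294-48753896) had a pileup of 72 (56.3 to 90.7) and was 34.7 kb from the start of Tmem176b, which encodes a membrane protein. The stretches with the fewest peaks were 45.3 kb between peaks 1 and 2, 31.15 kb between peaks 22 and 23, 22.5 kb across the Gimap5 body and Gimap3, and 15.4 kb across Gimap4. Spacing of neighbouring summits had a median of 5.0 kb, and 20 of the 23 had another within 10 kb (87.0%, against 49.2% of all high-confidence peaks). With steps of at most 10 kb, the region held 2 runs of 8 peaks, one from peak 2 to peak 9 over 34.7 kb and the other from peak 13 to peak 20 over 27.6 kb. Among the 13141 runs of the genome, single peaks counted as runs, 52 had at least 8 peaks, these 2 included, and the longest held 16.

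**Figure D3:**
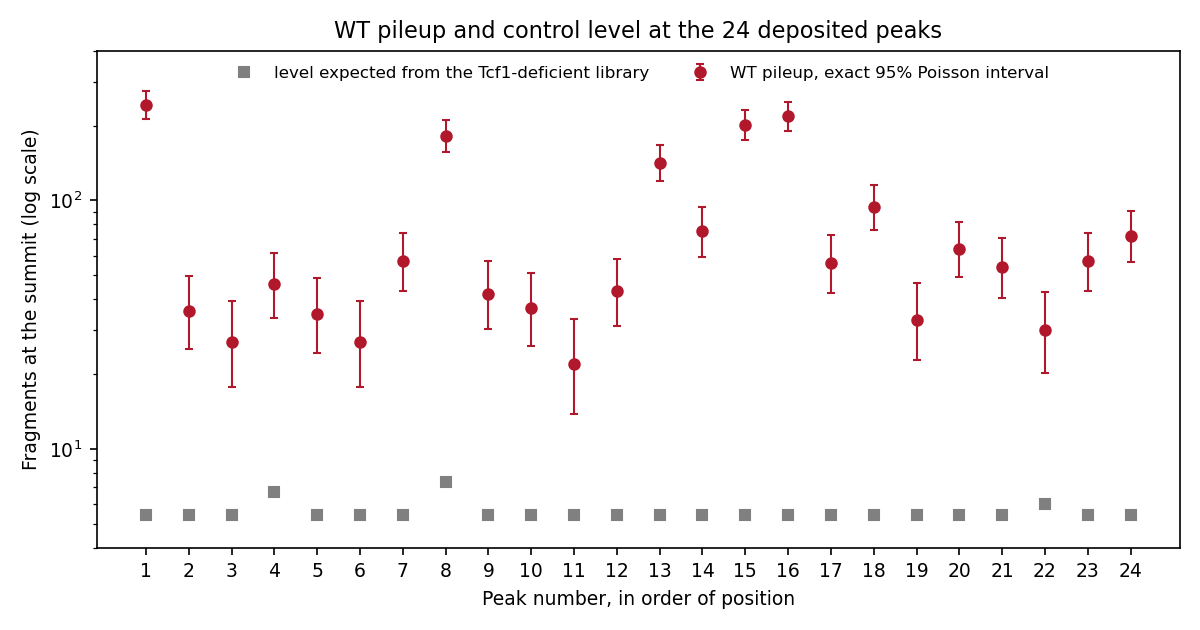
WT pileup at each summit (points, bars are exact 95% Poisson intervals) and level expected from the Tcf1-deficient library (squares), in fragments on a log scale, for the 24 peaks in order of position. The control level departs from its genome-wide floor of 5.42 at peaks 4, 8 and 22, where it reaches 6.69, 7.35 and 6.02. At the other peaks the square is this floor and not a local reading of the library.

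The control level, computed back from pileup and fold enrichment, has a genome-wide floor of 5.42 fragments, and it stood at that floor at 20 of the 23 high-confidence summits (87.0%, against 86.3% in the whole list). At those summits the fold enrichment was set by the WT pileup alone, and the fold minimum corresponded to a pileup of 25 (16.2 to 36.9).

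The median fold enrichment was 8.88 (order-statistic 95% interval 5.92 to 11.8, range 4.36 to 38.0), against 6.86 both in the whole list and on chromosome 6, a value within that interval. The median pileup was 56 against 44, and the median width 634 bp against 484 bp. A fold enrichment of at least 8 was reached by 13 peaks (56.5%, against 39.6%) and one of at least 20 by 5 peaks (21.7%, against 7.98%). Promoter peaks (7) and the other peaks (16) of the region had median fold enrichments of 9.04 and 8.73. When RefSeq starts were used beside those of GENCODE, the values were again 9.04 for 9 peaks and 8.73 for 14. Peaks are not replicates, and these differences carry no test.

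**Figure D4:**
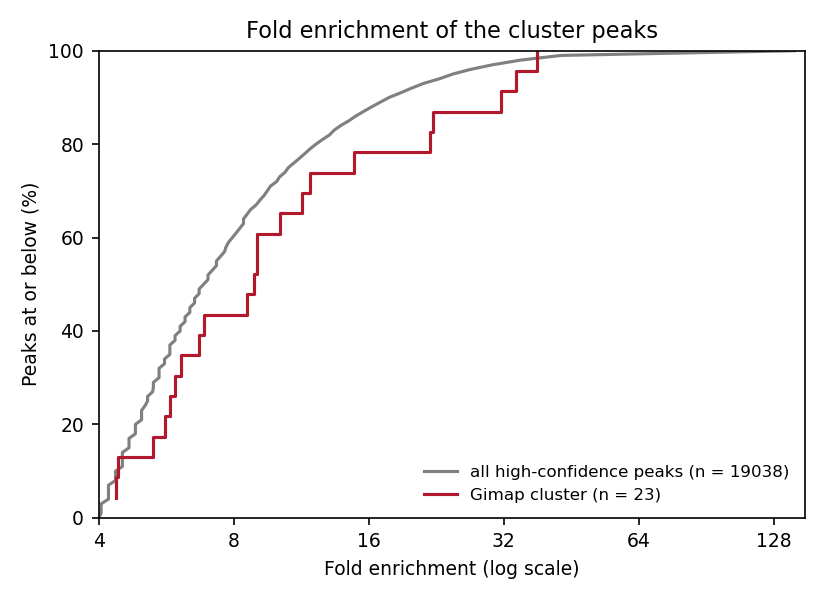
Cumulative share of peaks (%) against fold enrichment (log scale) for the 23 peaks of the region and all 19038 high-confidence peaks. The line of the region lies to the right of the whole list over most of the range, with medians of 8.88 and 6.86, and ends at 38.0.

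By GENCODE, 11 of the 23 peaks were intergenic, 7 were promoter peaks and 5 lay in gene bodies. With RefSeq starts added, 9 lay within 1 kb of a start, since peaks 1 and 22, intergenic here, are at RefSeq starts. The shares that follow are by GENCODE alone. The intergenic share was 47.8% (26.8 to 69.4) against 27.4% in the whole list, the promoter share 30.4% (13.2 to 52.9) against 39.6%, and the gene body share 21.7% against 33.0%. The interval of the promoter share contained the share of the whole list, as did that of the intergenic share near its lower bound. The median GC content around the summits was 46.8% against 51.7% in the whole list. It was 52.2% at promoter peaks and 45.3% at the others.

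The density of 105 high-confidence peaks per Mb compared with 7.21 over the genome, a ratio of 14.5 (9.22 to 21.8, counting error only), and with 6.99 on chromosome 6. Of 12020 windows of the same length along the genome, 3 (0.025%) held 23 or more, the fullest held 25, and 58.0% held 0. Those windows were cut on a fixed grid, which can split a dense locus and did split this one. The count of 23 comes from a window set around the cluster, so the 0.025% can make its density look rarer than it is. The other locus with as many peaks in a 100-kb bin, at Arl4c on chromosome 1, had 17 high-confidence peaks there with a median fold enrichment of 6.86 and a maximum of 59.8. It had 1 promoter, 5 gene body and 11 intergenic peaks.

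The exact Tcf/Lef core was present near the summit at a share close to that of the whole list. Searched for in either orientation up to 100 bp from the summit, it was found at 2 of 23 (8.70%, 1.07 to 28.0), peaks 15 and 17, against 10.2% of all high-confidence peaks. It was also in 2 of 46 flanking windows of the same size placed 2 kb to each side, against 3.31% over the whole list. The 2 hits were cores of peaks 17 and 18, since flanks of peaks 18 and 19 fell on these neighbours. The flanks of the region are therefore not a background free of peaks. At peak 15 the core lay 8 bp from the summit and at peak 17 it lay 33 bp away. Over the full width of the peaks there were 6 cores in 5 peaks, those shown above (21.7% of the 23, against 15.1% of all high-confidence peaks searched over their full width). The further ones were in peak 18, 98 bp and 267 bp from the summit, the nearer one extending just past the searched window, in peak 24 at 220 bp and in peak 16 at 308 bp. All peaks with a core but peak 24 lie between the Gimap7 and Gimap5 starts. Peaks 1, 8 and 13, with fold enrichments over 20, held no exact core over their full width, which says only that these letters are not there.

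The Runx core was present at 6 of 23 summits (26.1%, 10.2 to 48.4), against 15.5% of all high-confidence peaks. The interval contained the share of the whole list. The core was also in 4 of 46 flanks (8.70%), against 5.24% of flanks over the whole list. Flank hits beside peaks 9 and 18 were cores of the neighbouring peaks 8, 17 and 19, so these flanks are not a background free of peaks. The 6 summits were those of peaks 3, 8, 10, 17, 19 and 23, at 20 to 73 bp from the summit for the nearest copy. Of them, 5 were not promoter peaks (5 of 16, against 21.7% of all such peaks). Peak 17 held both a Tcf/Lef core and 2 Runx cores, which did not overlap. The ETS core (CGGAAGT, both strands) was found at 1 summit, peak 12 at the Gimap6 start, 81 bp from the summit (4.35%, 0.110 to 21.9, against 6.93%). Any of the 3 cores was present at 8 summits (34.8%, against 30.4%). The letters of each core read backwards, searched as controls, were found at 0 of 23 summits each, which allows a share of up to 14.8% (exact binomial upper bound) and so includes the 2.40%, 3.65% and 3.08% of the whole list (backward Tcf/Lef, ETS and Runx).

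**Figure D5:**
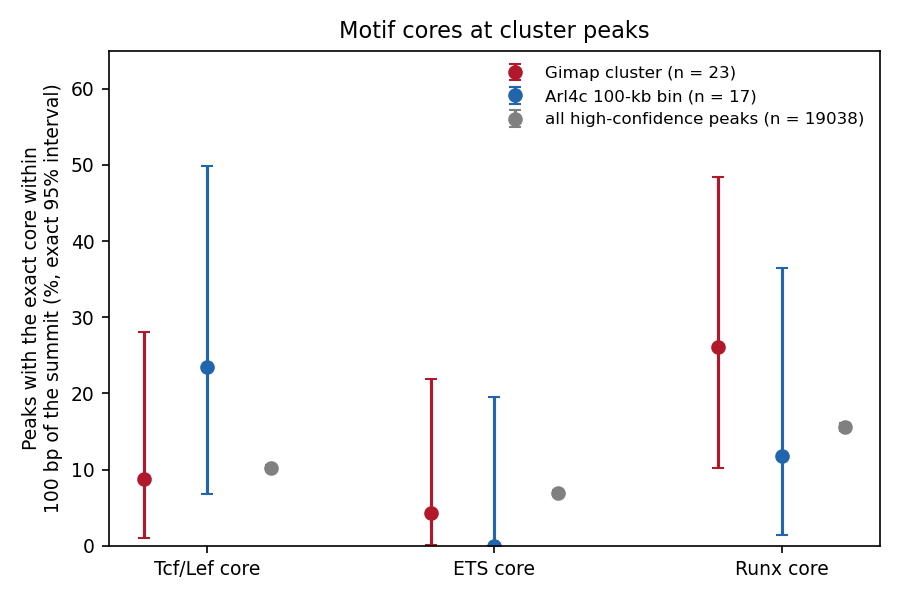
Share of summits (%) with the exact Tcf/Lef, ETS or Runx core within 100 bp, for the 23 peaks of the region, the 17 peaks of the Arl4c bin and all 19038 high-confidence peaks, with exact 95% binomial intervals. The shares of the region are 8.70%, 4.35% and 26.1%, and each interval contains the share of the whole list.

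RefSeq promoters, from 250 bases before to 50 after the start, were matched for 8 of 8 Gimap genes (9 sequences), and 0 held the Tcf/Lef core (3.73% of all 32851 RefSeq promoters), 1 held the ETS core, that of Gimap6 (6.42%), and 0 held the Runx core (5.27%). Among the 24 peak sequences, 18 had no match elsewhere in the region (blastn, E of at most 1e-05), and of the 21 matches of the other 6, 0 led into another called peak. The single match of peak 14 was to a stretch that overlaps peak 14 itself. At 21 of the 23 high-confidence peaks, at least 90% of the 32-base stretches occurred once in mm9. The lowest share was 80.5%, at peak 16.

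The 8 Gimap genes had between 11 (Gimap8) and 18 (Gimap1) high-confidence peaks in the gene body or within 50 kb, with a median of 15.5 (66.5% of all protein-coding genes had at least 1), and these sets share peaks because the genes are neighbours. The median over all protein-coding genes was 1, and 288 genes (1.29%) had 11 or more. In a list of 12 other immune GTPase genes (Gbp and Irg families, which act in cell-autonomous defence), 10 had a promoter peak (32.8% of all protein-coding genes) and the number within 50 kb ranged from 2 to 7, with a median of 3. The strongest peak of that list, near Gbp9, had a fold enrichment of 28.2. In a list of 9 genes of T cell survival and homing, 9 had a promoter peak, beside the same 32.8%, and the number ranged from 4 to 16, with a median of 8. Within it, Ccr7, the lymph node homing receptor, had 16 peaks, Bcl2, the survival factor, had 15 and Klf2, a transcription factor of T cell quiescence and trafficking, had 12, all within the range of the Gimap genes. The counts include the gene body, and Bcl2 is longer than any Gimap gene, so its count covers a longer stretch. The other protein-coding genes whose bodies overlap the region, Repin1 and Zfp775, had 0 promoter peaks by GENCODE.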

How the data were processed

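Per the submitters' processing notes, reads were aligned with Bowtie2 2.2.5 to mm9, and peaks were called by the authors with MACS2 2.1.1.20160309 in paired-end mode, WT against Tcf1-deficient, keeping 79.6% and 76.5% of fragments as non-duplicates. The deposited signal is the unscaled WT pileup, a coverage. The deposited fold enrichment is a ratio with a pseudocount of 1. The deposited −log10 p-value and −log10 q-value came from the caller. The file header states that the larger library is scaled to the smaller one and that q is not calculated. Yet all 22286 deposited pileups of the WT library, the larger one, are whole numbers, which scaling by the ratio of the libraries would not give, and 24 of 24 peaks of the region carry a q.

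Computed here with Python 3.11.15, scipy 1.17.1 and blastn 2.17.0 were the control level, exact Poisson and binomial intervals, positions against GENCODE vM1 (promoter: 1 kb on each side of any start), motif matches in mm9 and uniqueness of 32-base stretches. Scripts were tested on simulated data. The genes, comparison lists and motifs were chosen with earlier results of these data known. All 8 Gimap genes are named. Peaks are given with position, pileup and fold enrichment where they are strongest at a gene or gap, carry a Tcf/Lef core or exceed the control floor. Alternatives varied the fold minimum, q, reach, promoter width, motif window and annotation. Poisson intervals cover counting error only. Binomial and order-statistic intervals treat peaks or genes as independent draws, so they are descriptive.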

Additional observations from a re-analysis of the deposited data

How the results depend on the processing

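Across 8 results and 38 alternatives, 33 values stayed within 1.5 times the count or within the interval, 5 moved and 0 turned direction. The number of high-confidence peaks was 13 at a fold minimum of 8 and 9 when gene bodies alone were counted, both by construction, and lay between 20 and 24 under the other filters. The density ratio was 23.6 in the fullest 100-kb bin. The ETS share was 0.0% within 50 bp, where it was 4.39% in the whole list. With the ETS core shortened to 6 bases it was 21.7%, against 28.1% in the whole list. The median control level was 6.31 with no pseudocount, which follows from the formula. RefSeq starts and the removal of the peak at the Zfp775 start were added after seeing the data. With a fold minimum of 8, 4 Gimap genes had a promoter peak, against 11.7% of all protein-coding genes. The Tcf/Lef share ranged from 8.33% to 21.7% and the Runx share from 21.7% to 34.8%. With a core shortened to 6 bases these shares were 21.7% and 34.8%, against 26.4% and 31.5% in the whole list, and within 50 bp 8.70% and 21.7%, against 8.21% and 10.6%. The longer Gimap1 transcript decides whether 4 peaks count as gene body. No paired analysis was possible because each group had 1 library.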
